A study of Mus musculus with 12 samples.

Results

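Tumors can hold T cells back with small molecules as well as with PD-L1. The 10 genes described here encode enzymes and receptors of 3 such routes, kynurenine, adenosine and prostaglandin E2, in MC38 tumors of mice treated with PB-020, an inhibitor of the IGF-1 receptor, with an antibody to PD-1, or with both. They were chosen by symbol, Ido1, Tdo2, Kmo and Kynu for kynurenine, Entpd1, Nt5e, Adora2a and Adora2b for adenosine, and Ptgs2 and Ptges for prostaglandin E2. All 10 were found among the 18211 genes of the table.

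IDO1 and TDO2 convert tryptophan to N-formylkynurenine, the precursor of kynurenine, which KMO and kynureninase (Kynu) break down further. Kynurenine activates the aryl hydrocarbon receptor in T cells and so favors suppressive states. CD39 (Entpd1) and CD73 (Nt5e) remove phosphates from extracellular ATP in sequence to leave adenosine, whose receptors include those encoded by Adora2a and Adora2b. Cyclooxygenase-2 (Ptgs2) and microsomal prostaglandin E synthase-1 (Ptges) make prostaglandin E2. Ido1 is a classical target gene of interferon-γ, a cytokine of activated T cells, and CD39, CD73 and the Adora2a receptor are also present on T cells and macrophages.

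RNA was sequenced from 12 tumors, 3 in each of 4 groups named CK, PB-020 and anti-PD-1 after what was given, with the combination of both drugs as the fourth. MC38 is a mouse colorectal adenocarcinoma line, and it grew under the skin of female C57BL/6 mice that were bought at 5 weeks of age, so tumor and host transcripts are counted together. From day 7 the CK mice were given the vehicle. PB-020 was given by gavage at 50 mg/kg per day, the anti-PD-1 antibody RMP1-14 at 200 μg per mouse on days 9, 12, 15 and 18, and mice of the combination group received both. Whether each tumor came from a mouse of its own is not stated in the labels, so p-values measure the spread between these samples.

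Depth was nearly equal, at 16545394 to 17217035 expected counts per tumor. Of 10 epithelial markers of the colon 8 were below 1 FPKM in all 12 tumors, among them Epcam at 0.06 to 0.54 FPKM and Cdx2 at 0 in 10 tumors, while Cdh1 had 1.59 to 3.96 and Lgals4 4.3 to 8.04 FPKM. FPKM is a fragment count divided by the length of the transcript and the total of the library, and can be compared between genes. In CK tumor 3 the summed FPKM of 6 neutrophil markers was 412, against 6.05 to 32.9 in the other 11 tumors. In anti-PD-1 tumor 1 the sum of 6 skeletal muscle markers was 540, against 10.1 to 59.7 elsewhere. Results of the 10 genes that rest on either tumor are given with and without it. For other genes of these routes such fits are given only in part. A lower level in a bulk tumor can mean fewer cells of a type or less RNA per cell, and these cannot be told apart.

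The 250 bases before the start site of RefSeq (GRCm38.p6) were read for short motifs on both strands. Of the 10 genes 7 matched the promoter table with 8 start sites, and Ido1, Kynu and Adora2a did not. The motif of the aryl hydrocarbon receptor, GCGTG, was present before 6 of the 8 starts (Ptgs2, Ptges, Tdo2, Nt5e, Adora2b and 1 of the Entpd1 starts) and in 28.2% of 32851 promoters. The CRE half-site TGACG, a motif of the cyclic AMP response on which both adenosine receptors act, was present before both starts of Entpd1 and in 17.8% of promoters. Neither the interferon motif ISRE (GAAA, any pair of bases and GAAA again, 2.98% of promoters) nor GAS (TTCNNNGAA, 7.02%) was found before the 8 starts. The windows of Nt5e, Entpd1 and Ptgs2 are shown because the results below turn on these genes. Each is written in the direction of its gene, with a match to GCGTG or TGACG, or to its reverse complement, in capitals. The Nt5e window is at chr9:88327359-88327608 (plus strand), those of Entpd1 at chr19:40612116-40612365 and chr19:40659520-40659769 (plus strand), and that of Ptgs2 at chr1:150099781-150100030 (plus strand).
Nt5e: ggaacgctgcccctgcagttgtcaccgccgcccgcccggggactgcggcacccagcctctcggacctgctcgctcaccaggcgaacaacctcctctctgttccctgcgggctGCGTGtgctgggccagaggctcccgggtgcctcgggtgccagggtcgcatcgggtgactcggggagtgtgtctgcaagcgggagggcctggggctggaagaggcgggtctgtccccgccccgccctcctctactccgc
Entpd1, start 1: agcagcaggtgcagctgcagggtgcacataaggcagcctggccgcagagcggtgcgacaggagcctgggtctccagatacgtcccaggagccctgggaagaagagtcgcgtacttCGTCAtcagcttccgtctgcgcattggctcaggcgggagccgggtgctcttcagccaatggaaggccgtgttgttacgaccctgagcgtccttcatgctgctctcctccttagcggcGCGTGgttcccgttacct
Entpd1, start 2: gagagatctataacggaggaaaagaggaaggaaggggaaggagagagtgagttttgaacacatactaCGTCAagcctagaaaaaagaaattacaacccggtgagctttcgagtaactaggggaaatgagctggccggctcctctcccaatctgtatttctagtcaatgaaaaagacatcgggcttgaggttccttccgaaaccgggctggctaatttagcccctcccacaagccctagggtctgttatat
Ptgs2: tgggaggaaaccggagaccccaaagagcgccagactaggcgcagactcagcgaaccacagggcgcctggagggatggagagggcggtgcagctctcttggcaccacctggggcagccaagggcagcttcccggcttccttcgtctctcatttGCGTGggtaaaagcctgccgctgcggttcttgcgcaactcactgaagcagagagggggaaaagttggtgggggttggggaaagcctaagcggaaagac

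The genes differed widely in level. Over the 12 tumors the median was 31.4 FPKM for Ptges, 8.36 for Ptgs2, 7.32 for Nt5e, 7.24 for Entpd1, 4.14 for Adora2b, 3.39 for Ido1, 0.86 for Kmo, 0.57 for Adora2a, 0.285 for Kynu and 0.06 for Tdo2. The prostaglandin enzymes thus stood at the top and 3 of the 4 kynurenine genes near the bottom of the order. Ido1 varied most, 34.2-fold between the lowest and the highest tumor, and Ptges least, 1.33-fold. Tdo2, at 0 to 7 counts per tumor, was removed by the filter on low counts, which left 9 genes for the tests.

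**Figure D1:**
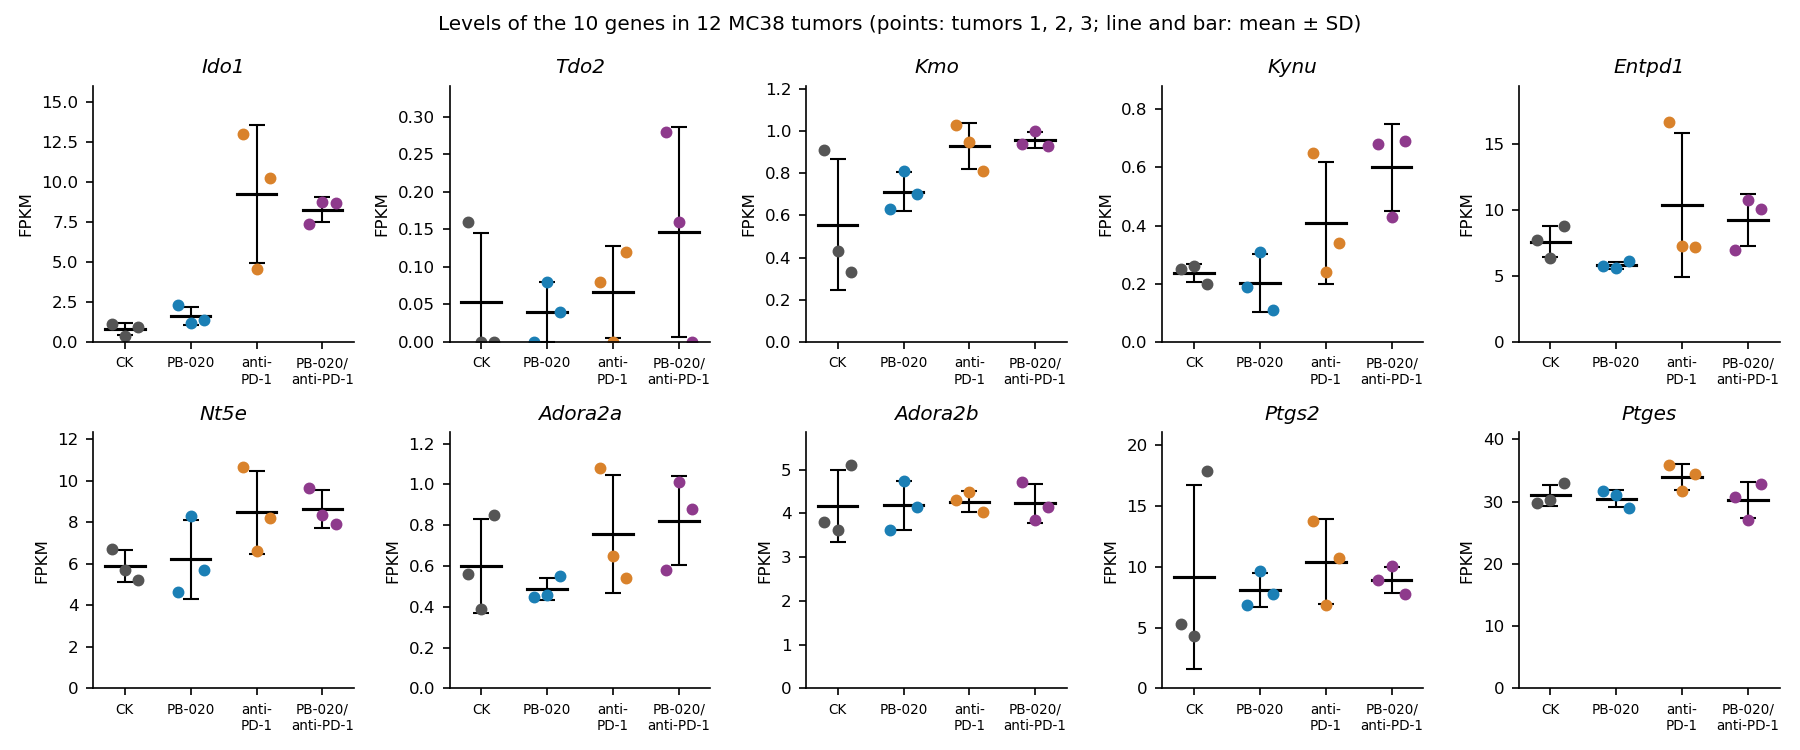
FPKM of the 10 genes (y axis, linear from 0) in the 4 groups. Points are tumors 1, 2 and 3 from left to right, and lines with bars are the mean ± SD (n = 3). Ido1 lay at 0.38 to 2.27 FPKM in the tumors without the antibody and at 4.52 to 12.98 in those with it.

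Ido1 rose with the antibody. Ido1 (gene 15930, chromosome 8 of GRCm38.p6, 24584133 to 24596952) had 1.10, 0.38 and 0.92 FPKM in the CK tumors, and 2.27, 1.18 and 1.39 in the PB-020 tumors. It had 12.98, 4.52 and 10.22 in the anti-PD-1 tumors, and 7.34, 8.74 and 8.69 in the combination tumors. Every tumor given the antibody was above every tumor that was not, and the anti-PD-1 group spread more than the combination group. The means were 0.80 ± 0.37, 1.61 ± 0.58, 9.24 ± 4.3 and 8.26 ± 0.79 FPKM (SD, n = 3). In counts, Ido1 had 26, 9 and 21 in CK and 52, 27 and 32 in PB-020. It had 300, 104 and 234 in anti-PD-1 and 167, 197 and 200 in the combination, so its fold increases start from low counts.

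Against CK, the log2 change of Ido1 was 3.52 with anti-PD-1 (standard error 0.44, adjusted p = 0.0067), an 11.5-fold increase with a 95% interval of 5.84 to 22.6. With the combination it was 3.36 (standard error 0.44, adjusted p = 0.0023), a 10.3-fold increase (5.22 to 20.2). These p-values come from edgeR's quasi-likelihood test with Benjamini-Hochberg adjustment over 13563 genes, as do all below. In the order of log2 change Ido1 was number 18 of these genes with anti-PD-1 and number 14 with the combination. Its call with anti-PD-1 was kept when any one tumor was left out (adjusted p up to 0.038), and was lost when the CK and anti-PD-1 tumors were fitted alone (3.53, adjusted p = 0.056).

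It was the one gene of the 9 called in each of these 2 comparisons, where 8.26% and 17.9% of all genes were called. All 9 changes were positive with anti-PD-1 and 7 with the combination. At an unadjusted p under 0.05 it was 3 and 4 of the 9, beside 26.6% and 33.9% of all genes. The median log2 change over the 9 was 0.46 and 0.56, beside 0 over all genes in both. The anti-PD-1 results rested in part on anti-PD-1 tumor 1. Without it, the changes of Entpd1 (-0.04), Adora2a (-0.1) and Ptgs2 (-0.03) with anti-PD-1 were negative, each smaller than its standard error (0.17, 0.36 and 0.59). The rest stayed positive. Kmo (0.68) and Nt5e (0.36) were then no longer under the unadjusted threshold, while Ido1 (3.21) still was. Both comparisons also rested on CK tumor 3. Without it, Kmo (0.48) and Nt5e (0.45) did not pass that threshold with anti-PD-1. With the combination, Kmo (0.52), Kynu (1.03) and Nt5e (0.49) did not pass either. Ido1 (3.61 and 3.46) still passed in both, Ptgs2 (1.13 and 0.91) now passed in both, and Ptges (0.19) passed with anti-PD-1.

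With PB-020 alone, Ido1 was above CK in all 3 tumors, an order seen upward in 6.19% of genes. The log2 change of 1.01 (standard error 0.47, 95% interval -0.03 to 2.05) did not pass the test (adjusted p = 0.87). Of the 9 genes 0 were called with PB-020 by edgeR or DESeq2, and 0 of 6 by limma, which did not test the low genes Kmo, Kynu and Adora2a, and edgeR called 0% of all genes. At an unadjusted p under 0.05, edgeR had 0 of the 9 and 5.46% of all genes. The median log2 change of the 9 was 0.

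No difference in Ido1 was detectable when both drugs were set against the antibody alone. It was -0.16 on the log2 scale (95% interval -0.97 to 0.64, adjusted p = 0.95), an interval that spans 0.51-fold to 1.56-fold. The combination was above PB-020 alone by 2.35 (standard error 0.41, adjusted p = 0.024), the one call of the 9 in a comparison where 3.35% of genes were called. At an unadjusted p under 0.05 Kynu and Adora2a passed too, beside 22.4% of all genes. That call was lost without PB-020 tumor 1 or 3, or without any one of the combination tumors (adjusted p up to 0.10), while the groups did not overlap. The interaction, which is how far the change with both drugs departs from the sum of the single changes, was -1.17 (standard error 0.60, 95% interval -2.49 to 0.14, adjusted p = 1.0). For the interaction and for the combination against anti-PD-1, edgeR and DESeq2 called 0 of the 9 genes and limma 0 of the 6 it tested, and edgeR called 0% of all genes. At an unadjusted p under 0.05 edgeR had 0 of the 9 for the interaction (2.29% of all genes) and 1, Ptges, for the combination against anti-PD-1 (7.26% of all genes).

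The effect of the antibody was also averaged over the presence and absence of PB-020, which sets 6 tumors against 6. On that average Ido1 was higher by 2.94 on the log2 scale (standard error 0.30, adjusted p = 0.00047), a 7.66-fold increase, and the 6 tumors with the antibody were above the 6 without it, as in 3.54% of genes. Ido1, Kynu and Nt5e were called, 3 of the 9 genes, where 24.2% of all genes were. Kynu passed the filter on low counts mainly through tumors given the antibody. At an unadjusted p under 0.05, 6 of the 9 passed, all higher, beside 37.9% of all genes that passed and 18.9% that passed as higher. Of these 6, Adora2a (0.38) was no longer under that threshold without anti-PD-1 tumor 1. Kmo was no longer under it without CK tumor 3 (0.45) or without both of these tumors (0.42). Ptgs2 (0.64) came under it without CK tumor 3. Averaged in the same way, PB-020 gave 0 calls by edgeR, 0 among the 4 genes for which DESeq2 gave an adjusted p and 0 among the 6 tested by limma, with edgeR having 0 of the 9 and 10.9% of all genes at an unadjusted p under 0.05. The change of Ido1 on that average was 0.42 (standard error 0.30).

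**Figure D2:**
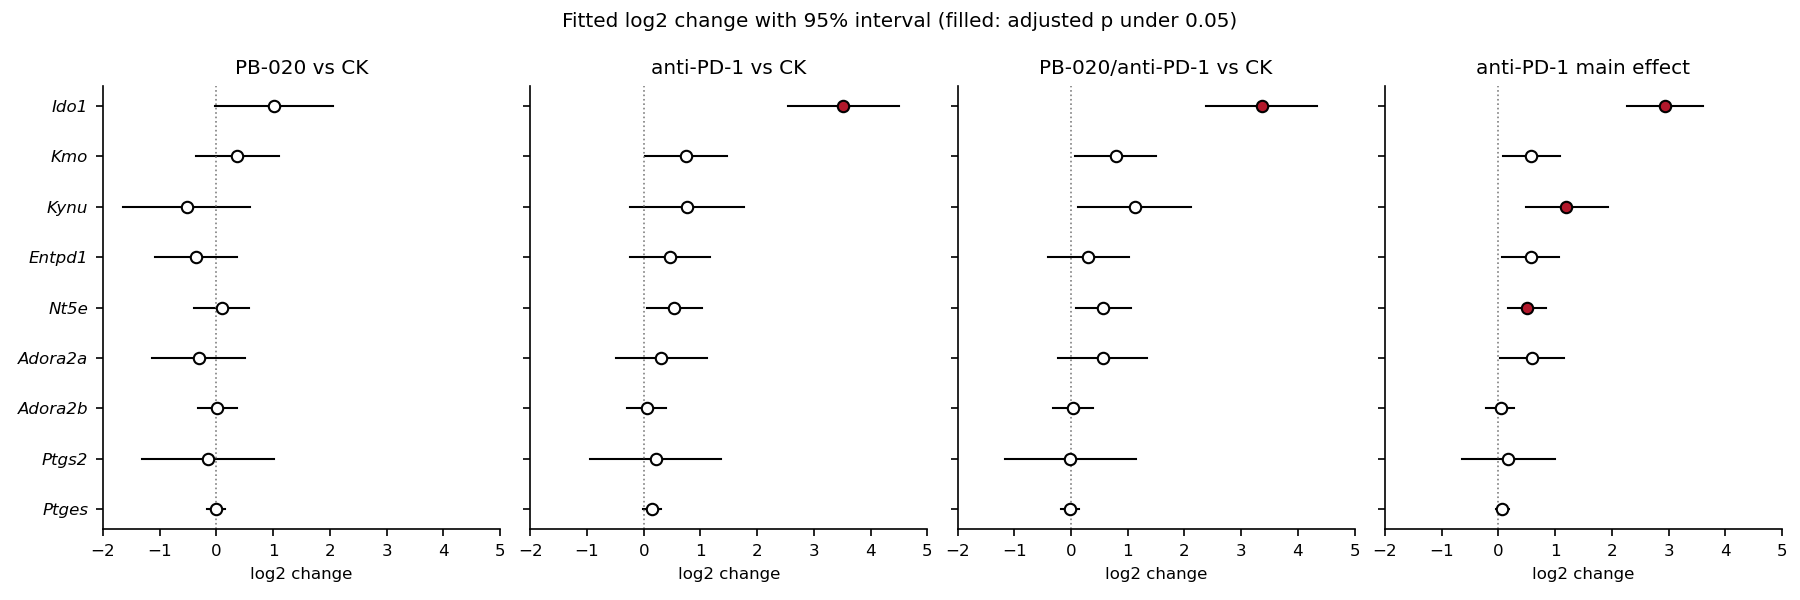
Log2 change (x axis) of the 9 genes tested, with 95% intervals as lines, for each treated group against CK and for the antibody averaged over PB-020. Filled points have an adjusted p under 0.05. Ido1 is filled in the comparisons with the antibody, at 3.52, 3.36 and 2.94, and Kynu (1.20) and Nt5e (0.51) are filled in the last panel.

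Most of 14 listed genes of the interferon-γ response rose in the same tumors. These genes include Ifng itself, the transcription factor gene Irf1 and the chemokine genes Cxcl9 and Cxcl10. With anti-PD-1 10 of the 14 were called higher (median log2 change 1.06), with the combination 11 (median 0.88), and with PB-020 0 (median 0.07, 0 at an unadjusted p under 0.05). Of all genes 4.18% were called higher with anti-PD-1 and 8.35% with the combination. With anti-PD-1 the log2 changes of the 14 ran from 0.69 to 2.10, each smaller than that of Ido1. Their summed FPKM was 392 to 793 in CK, 492 to 800 in PB-020, 1082 to 1660 in anti-PD-1 and 1274 to 1433 in the combination. The sum of 7 T cell markers moved likewise, from 11.0 to 15.1 in CK and 15.8 to 21.6 in PB-020 to 25.9 to 65.0 in anti-PD-1 and 30.1 to 51.1 in the combination. In the anti-PD-1 group, tumor 1 had the highest and tumor 2 the lowest value of both Ido1 and the interferon-γ sum. In the combination group, tumor 2 was the highest and tumor 1 the lowest for both. In CK and in PB-020, tumor 2 was the lowest for both, but Ido1 was highest in tumor 1 and the sum in tumor 3. The part of these cells and of interferon-γ in the level of Ido1 was not tested.

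Over the 12 tumors, the profiles closest to that of Ido1 were those of Serpina3f, Nov and Mcpt1. The mean absolute difference of their centred log2 CPM (counts scaled to the library total) from that of Ido1 was 0.483, 0.491 and 0.534, beside a median of 1.43 over all genes tested. Serpina3f encodes a serine protease inhibitor and had 3.62 to 9.43 FPKM in CK and 17.42 to 45.22 in anti-PD-1. Nov encodes a secreted matricellular protein, with 0.58 to 3.38 FPKM in CK and 4.07 to 30.46 in anti-PD-1. Mcpt1, a mast cell protease gene, rested on at most 34 counts in a tumor.

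Of the genes below IDO1 in the pathway, Kmo and Kynu had low levels. Kmo, which turns kynurenine into 3-hydroxykynurenine, had 0.91, 0.43 and 0.33 FPKM in CK and 0.63, 0.81 and 0.70 in PB-020. It had 1.03, 0.95 and 0.81 in anti-PD-1, and 0.94, 1.0 and 0.93 in the combination. CK tumor 1 was close to the treated tumors and the other CK tumors were below all of them. The log2 change was 0.75 with anti-PD-1 (standard error 0.33, adjusted p = 0.17) and 0.79 with the combination (standard error 0.33, adjusted p = 0.11). Kmo did not pass in either. Of 18 alternatives it passed in 1 for each, that without CK tumor 1 (adjusted p = 0.03 and 0.014). Without CK tumor 3 the changes were 0.48 and 0.52 (adjusted p = 0.41 and 0.31). Without both CK tumor 3 and anti-PD-1 tumor 1 they were 0.41 and 0.52 (adjusted p = 0.54 and 0.26).

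Kynu, whose enzyme cleaves kynurenine and 3-hydroxykynurenine, had 0.25, 0.26 and 0.20 FPKM in CK and 0.19, 0.31 and 0.11 in PB-020. It had 0.65, 0.24 and 0.34 in anti-PD-1 and 0.68, 0.43 and 0.69 in the combination, from 3 to 24 counts per tumor. The combination tumors were above all CK and PB-020 tumors, and the anti-PD-1 tumors overlapped with CK. Averaged over PB-020, Kynu was higher with the antibody by 1.20 on the log2 scale (standard error 0.34, adjusted p = 0.021), which was lost without PB-020 tumor 3 or combination tumor 1 (adjusted p up to 0.054), and without both CK tumor 3 and anti-PD-1 tumor 1 (adjusted p = 0.064). Kynu passed the filter of at least 10 counts mainly through tumors given the antibody, so this call drew on the groups where it was high. Its counts were 8, 12 and 8 in CK and 7, 9 and 3 in PB-020. They were 24, 7 and 16 in anti-PD-1 and 23, 16 and 21 in the combination. The change of Kynu with the combination against CK was 1.12 (standard error 0.46, adjusted p = 0.10). Tdo2 had 0.16, 0 and 0 FPKM in CK and 0.28, 0.16 and 0 in the combination, and its counts allow no comparison.

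Relative to Kmo and Kynu, Ido1 therefore stood higher in the tumors given the antibody than in CK. Afmid, the gene of the step directly after IDO1, is not part of these ratios and had 7.62 to 13.3 FPKM over the 12 tumors. The ratio of Ido1 to Kmo in FPKM was 0.884 to 2.79 in CK and 1.46 to 3.6 in PB-020, against 4.76 to 12.6 in anti-PD-1 and 7.81 to 9.34 in the combination. The ratio of Ido1 to Kynu was 1.46 to 4.60 in CK and 10.8 to 30.1 in tumors given the antibody, and the PB-020 tumors, at 3.81 to 12.6, overlapped with both.

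Of 24 other genes of the kynurenine route, which covers tryptophan and kynurenine enzymes, transporters and the aryl hydrocarbon receptor with its targets, 18 were tested. With anti-PD-1 0 were called higher and 1 lower, with the combination 0 higher and 3 lower, and with PB-020 0. Of all genes 8.26% were called with anti-PD-1 (4.08% lower) and 17.9% with the combination (9.60% lower), so that these counts are not read as a feature of the route. For the antibody averaged over PB-020, 4 were called higher and 3 lower, where 24.2% of all genes were called. The higher ones were Ido2, Wars, Cyp1b1 and Gpr35 (adjusted p = 0.01, 0.018, 0.045 and 0.015). The lower genes with the combination were Afmid, the formamidase that follows IDO1 (log2 change -0.46, standard error 0.12, adjusted p = 0.022), Slc36a4, a tryptophan transporter (-0.46, standard error 0.08, adjusted p = 0.0043), and Arnt, the partner of the aryl hydrocarbon receptor (-0.28, standard error 0.08, adjusted p = 0.032). The call of Arnt was lost in 5 of the 12 fits with 1 tumor left out, and that of Afmid in 3, those without CK tumor 3, combination tumor 1 or combination tumor 2 (adjusted p up to 0.086). Slc36a4 was also called with anti-PD-1 (-0.29, adjusted p = 0.045), a call lost in 16 of 21 alternatives. The median log2 change of the list was 0.06 in both comparisons, beside 0 over all genes.

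Afmid had 11.32, 10.88 and 13.29 FPKM in CK and 8.02, 8.33 and 9.41 in the combination, with no overlap. Wars, the tryptophanyl-tRNA synthetase and one of the 3 most abundant genes of the list, had 41.70, 39.75 and 38.81 FPKM in CK and 44.78, 31.67 and 49.17 in PB-020. It had 92.55, 50.26 and 65.52 in anti-PD-1 and 49.19, 62.73 and 70.57 in the combination. Its highest tumor was again anti-PD-1 tumor 1. Its log2 change was 0.80 with anti-PD-1 (adjusted p = 0.06) and 0.66 for the antibody averaged over PB-020 (standard error 0.16, adjusted p = 0.018). No fit of Wars without that tumor is given here. The other abundant genes, Got2 and the amino acid transporter gene Slc3a2, changed by 0.13 or less in size against CK and were not called. Ahr, the receptor for kynurenine, changed by -0.17 with anti-PD-1 and by -0.31 with the combination on the log2 scale (adjusted p = 0.55 and 0.23), and was singled out after its values were seen.

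Of the adenosine genes, Entpd1 was high in a single anti-PD-1 tumor. Entpd1 (gene 12495, chromosome 19, 40612366 to 40741602) had 7.73, 6.34 and 8.78 FPKM in CK and 5.73, 5.60 and 6.13 in PB-020. It had 16.69, 7.28 and 7.20 in anti-PD-1 and 6.94, 10.77 and 10.08 in the combination. The PB-020 tumors were below all others, and apart from anti-PD-1 tumor 1 the antibody groups overlapped with CK or lay just above it. That order below CK is seen in 8.74% of genes with PB-020, and the log2 change was -0.36 (standard error 0.32, 95% interval -1.09 to 0.36, adjusted p = 0.92).

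With anti-PD-1, Entpd1 changed by 0.46 (standard error 0.32, adjusted p = 0.38), and by -0.04 (standard error 0.17) without anti-PD-1 tumor 1. Averaged over PB-020 the change was 0.57 (standard error 0.22, adjusted p = 0.098), or 0.31 (standard error 0.11, adjusted p = 0.072) without that tumor. On that average it passed with both that tumor and CK tumor 3 left out, a fit chosen after the values were seen (0.37, adjusted p = 0.041). The combination was above PB-020 by 0.67 (standard error 0.32, adjusted p = 0.26), which passed without anti-PD-1 tumor 1 (0.67, standard error 0.15, adjusted p = 0.023) and without both tumors (0.68, adjusted p = 0.015). The summed FPKM of 8 macrophage markers was 1354 in anti-PD-1 tumor 1 and 728 to 1004 in the other tumors, and its T cell and muscle sums were the highest too. Of the 8 macrophage markers 0 were called in any comparison with CK and 0 had an unadjusted p under 0.05 by edgeR. The part of these cells in the level of Entpd1 was not tested.

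Nt5e, whose product CD73 makes adenosine from AMP, was called for the antibody on average. Nt5e (gene 23959, chromosome 9, 88327609 to 88372089) had 6.73, 5.71 and 5.23 FPKM in CK and 4.64, 8.29 and 5.72 in PB-020. It had 10.64, 6.61 and 8.19 in anti-PD-1 and 9.66, 8.34 and 7.90 in the combination. All combination tumors were above CK, while 1 PB-020 tumor lay among them. The log2 change was 0.54 with anti-PD-1 (standard error 0.22, adjusted p = 0.14), 0.57 with the combination (standard error 0.22, adjusted p = 0.093) and 0.51 on average over PB-020 (standard error 0.15, adjusted p = 0.036), a 1.42-fold increase. The last call was lost in 11 of 20 alternatives, among them the fit without a filter (adjusted p = 0.052) and those without CK tumor 3 (0.072) or anti-PD-1 tumor 1 (0.076), with changes of 0.38 to 0.64 over all of them.

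The adenosine receptors did not pass in any comparison. Adora2b had 3.80, 3.61 and 5.11 FPKM in CK, 3.63, 4.75 and 4.15 in PB-020, 4.31, 4.49 and 4.02 in anti-PD-1 and 4.72, 3.84 and 4.14 in the combination. Its log2 change against CK was 0.02, 0.06 and 0.04 in these 3 groups (standard error 0.16), and the 95% interval for the combination was -0.31 to 0.38. Adora2a had 0.56, 0.39 and 0.85 FPKM in CK and 0.45, 0.46 and 0.55 in PB-020. It had 1.08, 0.65 and 0.54 in anti-PD-1 and 0.58, 1.01 and 0.88 in the combination, on 16 to 44 counts per tumor. The combination tumors were above the PB-020 tumors, by 0.87 on the log2 scale (standard error 0.37, adjusted p = 0.19). In every tumor Adora2b exceeded Adora2a, by 3.80-fold to 10.3-fold in FPKM.

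The order of the tumors was also counted without a test. Against CK, 4 of the 9 genes (Ido1, Kmo, Kynu and Nt5e) had all combination tumors above all CK tumors, beside 17.9% of all genes. Against PB-020 it was 5 of the 9 (Ido1, Kmo, Kynu, Entpd1 and Adora2a), beside 14.5%. With anti-PD-1 against CK it was Ido1 alone, beside 11.8%. Both comparisons with CK share the CK tumors.

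Among the other genes of extracellular ATP and adenosine, 4 were called lower with anti-PD-1. Of 23, 19 were tested, and with anti-PD-1 0 were called higher and 4 lower, with the combination 1 higher and 4 lower, and with PB-020 0, beside the 4.08% and 9.60% of all genes called lower. The same 4 were called lower in both comparisons. They were Entpd2 and Enpp3, which encode ectoenzymes that break down ATP, Acpp, a phosphatase that can make adenosine from AMP, and P2rx7, a channel opened by ATP. For the antibody averaged over PB-020, 4 were called lower and 4 higher, where 24.2% of all genes were called. The higher ones were Bst1, Dpp4, Pnp and Slc29a2 (adjusted p = 0.029, 0.029, 0.0048 and 0.049). The median log2 change over the list was 0.13 with anti-PD-1 and 0.14 with the combination.

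Entpd2 had 35.58, 34.71 and 35.29 FPKM in CK, 30.28, 31.70 and 31.83 in PB-020, 16.87, 25.20 and 19.13 in anti-PD-1 and 19.15, 18.14 and 22.87 in the combination. At these levels Entpd2 was above Entpd1 in every tumor, while the tumors given the antibody lay below all others. Its log2 change was -0.77 with anti-PD-1 (standard error 0.12, adjusted p = 0.0067) and -0.79 with the combination (standard error 0.12, adjusted p = 0.0024).

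Enpp3 had 4.25, 7.99 and 5.87 FPKM in CK, 4.50, 4.33 and 3.85 in PB-020, 0.82, 2.10 and 0.60 in anti-PD-1 and 0.51, 0.70 and 0.97 in the combination. Its log2 change was -2.34 with anti-PD-1 (standard error 0.41, adjusted p = 0.012) and -3.02 with the combination (standard error 0.43, adjusted p = 0.0031). Acpp had 2.53, 2.79 and 3.63 FPKM in CK, 2.54, 2.36 and 1.80 in PB-020, 0.60, 0.79 and 0.50 in anti-PD-1 and 0.58, 1.04 and 0.54 in the combination. Its log2 change was -2.26 with anti-PD-1 (standard error 0.24, adjusted p = 0.0031) and -2.14 with the combination (standard error 0.24, adjusted p = 0.00095). Both genes were lower in every tumor given the antibody than in every tumor without it.

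P2rx7 changed by -0.42 with anti-PD-1 (standard error 0.08, adjusted p = 0.013) and by -0.47 with the combination (standard error 0.08, adjusted p = 0.0042). The call with anti-PD-1 was lost with the CK and anti-PD-1 tumors fitted alone for Entpd2, Enpp3 and P2rx7, without CK tumor 2 for Enpp3 and P2rx7, without anti-PD-1 tumor 3 for P2rx7, and for Enpp3 with both tumors that stand apart left out. The calls with the combination held for these 4 genes in each alternative that tested them. The summed FPKM of 6 fibroblast markers, to which the collagen gene Col3a1 gave the most, was lower in the same tumors, 1625 to 2243 in CK and 1540 to 1586 in PB-020 against 607 to 1133 in anti-PD-1 and 631 to 924 in the combination, and 4 of the 6 were called lower with anti-PD-1 and with the combination. The other two were not called, with log2 changes of 0.85 and 0.74 for Col1a1 and of 1.18 and 1.69 for Lum. Its part in these falls was not tested. Pnp, the phosphorylase that removes inosine, was the one gene of the list called higher with the combination (0.48, standard error 0.10, adjusted p = 0.0093).

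**Figure D3:**
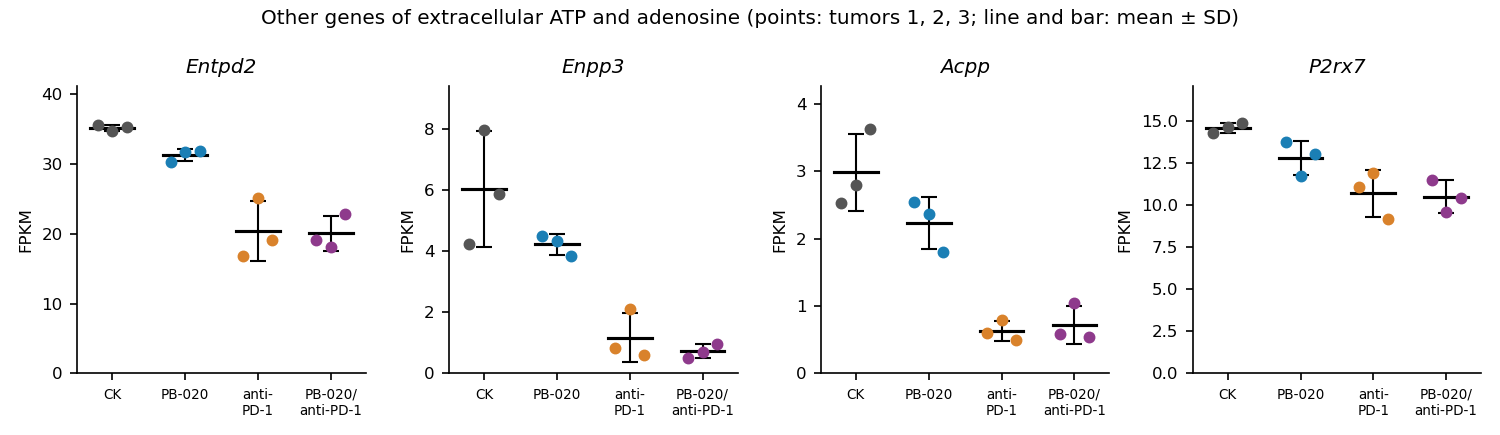
FPKM (y axis, linear from 0) of Entpd2, Enpp3, Acpp and P2rx7 in the 4 groups. Points are tumors 1, 2 and 3 from left to right, and lines with bars are the mean ± SD (n = 3). Entpd2, Enpp3 and Acpp were lower in all 6 tumors given the antibody than in the 6 others.

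For prostaglandin E2, the reading depended on 1 CK tumor. Ptgs2 (gene 19225, chromosome 1, 150100031 to 150108234) had 5.27, 4.32 and 17.90 FPKM in CK and 6.87, 9.67 and 7.78 in PB-020. It had 13.74, 6.83 and 10.72 in anti-PD-1 and 8.94, 10.06 and 7.77 in the combination. CK tumor 3 was the highest of all 12, and the other CK tumors were the lowest. Against CK the log2 change was -0.15 with PB-020, 0.21 with anti-PD-1 and -0.01 with the combination (standard errors 0.51, 0.50 and 0.51, adjusted p = 0.99, 0.82 and 0.99).

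Without CK tumor 3, Ptgs2 was higher than in the 2 remaining CK tumors in every treated tumor. The log2 changes were then 0.77 with PB-020 (standard error 0.27, adjusted p = 0.99), 1.13 with anti-PD-1 (standard error 0.27, adjusted p = 0.052) and 0.91 with the combination (standard error 0.27, adjusted p = 0.062). The antibody averaged over PB-020 passed in that fit (0.64, standard error 0.18, adjusted p = 0.035), against 0.17 with all tumors (standard error 0.36, adjusted p = 0.76). Without both CK tumor 3 and anti-PD-1 tumor 1 the combination passed (0.91, adjusted p = 0.031). The share of all genes called in these fits, or with that order against the 2 CK tumors, is not given here. The order and the passes are therefore not read as particular to Ptgs2. CK tumor 3 held 163.03 FPKM of S100a8 and 211.3 of S100a9, calprotectin genes of neutrophils, the highest of all tumors, while Ly6g, another neutrophil marker, was at 0 in 8 tumors and at most 0.80. The part of these cells in Ptgs2 was not tested.

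**Figure D4:**
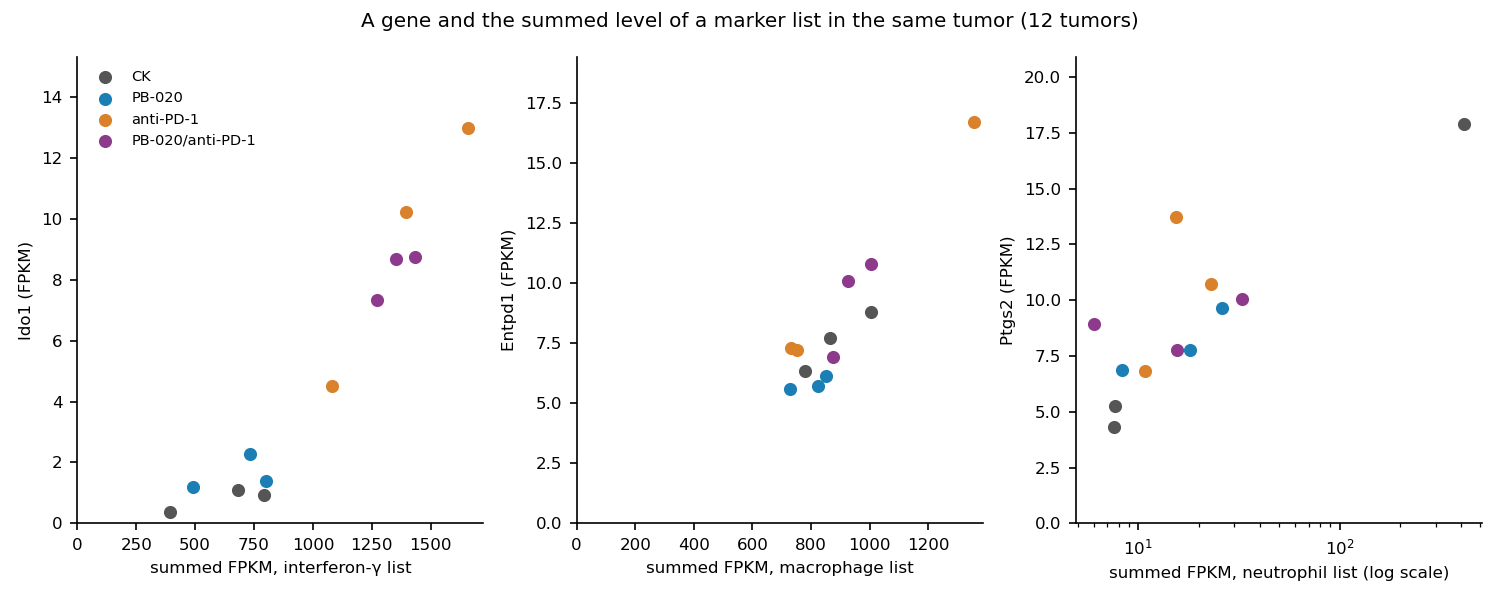
Level of a gene in FPKM (y axis) against the summed FPKM of a marker list (x axis) in the same 12 tumors, for Ido1 with 14 interferon-γ genes, Entpd1 with 8 macrophage markers, and Ptgs2 with 6 neutrophil markers on a log axis. Colors are the 4 groups. Single tumors stand apart, anti-PD-1 tumor 1 at 16.69 FPKM of Entpd1 and CK tumor 3 at 17.90 of Ptgs2.

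Ptges was the most even gene. Ptges (gene 64292, chromosome 2, 30889471 to 30931020) had 29.74, 30.28 and 32.99 FPKM in CK and 31.66, 31.07 and 28.91 in PB-020. It had 35.89, 31.70 and 34.45 in anti-PD-1 and 30.70, 27.06 and 32.87 in the combination, so that every group overlapped with CK. The difference of the combination from anti-PD-1 was -0.17 on the log2 scale (standard error 0.07, 95% interval -0.33 to -0.01), which did not pass after adjustment (adjusted p = 0.67). Against CK the 95% interval was -0.16 to 0.16 with PB-020, -0.01 to 0.31 with anti-PD-1 and -0.18 to 0.14 with the combination. The ratio of Ptges to Ptgs2 in FPKM was 1.84 in CK tumor 3 and 2.61 to 7.01 in the other 11 tumors.

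Of 23 other genes of prostaglandin synthesis, transport and reception, 19 were tested. With the combination 1 was called higher, Ptges3, a cytosolic prostaglandin E synthase and cochaperone (0.38, standard error 0.07, adjusted p = 0.0059), with 72.97 to 79.51 FPKM in CK and 95.35 to 101.64 in the combination. With anti-PD-1 it was Slco2a1, the transporter that takes up prostaglandins (0.72, standard error 0.21, adjusted p = 0.047), whose groups overlapped and whose call was lost in 17 of 21 alternatives. Of all genes 8.35% and 4.18% were called higher in these comparisons. With PB-020 0 were called, and 0 were lower in any comparison with CK. For the antibody averaged over PB-020, 4 were called higher (Ptges3, Slco2a1, Slco3a1 and Ptger2) and 0 lower, where 24.2% of all genes were called. The median log2 change was 0.16 with anti-PD-1 and 0.21 with the combination. Ptgs1 and Akr1b3, the other abundant genes, were not called. Of the receptors for prostaglandin E2, which were singled out after their values were seen, Ptger2 changed by 0.86 with anti-PD-1 and by 1.19 with the combination (adjusted p = 0.21 and 0.062), and Ptger4 by 0.17 and 0.14 (adjusted p = 0.70 and 0.73).

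The tumor in which a gene was highest was counted over the 9 genes. Anti-PD-1 tumor 1 was the highest for 6 (Ido1, Kmo, Entpd1, Nt5e, Adora2a and Ptges), beside 21.7% of all genes tested, CK tumor 3 for 2 (Adora2b and Ptgs2), beside 13.6%, and combination tumor 3 for Kynu, beside 4.24%. CK tumor 2 was the lowest for 4 of the 9 (Ido1, Adora2a, Adora2b and Ptgs2), beside 10.3% of all genes.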

How the data were processed

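Bulk RNA of 12 MC38 tumors was sequenced. The authors aligned pairs of 150 bases with Bowtie2 and quantified genes with RSEM. The submitters' processing notes also name HISAT, and GRCm38.p6 as the build, and the methods name mm10 or hg19. The authors deposited expected counts, which RSEM estimates, FPKM (scaled by gene length and library total by the authors) and TPM, which was not used here. Counting by strand is not given in the sources used here, and Ido1, Entpd1 and Ptges overlap non-coding genes or pseudogenes, so their values can hold shared reads.

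Groups followed the labels. Expected counts, 91.0% of them whole, were rounded, passed through filterByExpr (edgeR 4.0.16, at least 10 counts), which kept 13563 genes, scaled by TMM and fitted with a robust quasi-likelihood model of 4 group means over 12 tumors, in R 4.3.3. Tests were two-sided, with Benjamini-Hochberg adjustment and a threshold of 0.05. Scripts were tested on simulated counts. Alternatives were DESeq2 1.42.0, limma 3.58.1 on log2(FPKM + 1) or log2(FPKM + 0.1) for genes over 1 FPKM in at least 3 tumors, other filters, library size alone, only the groups compared, a replicate block, leaving out each tumor, and leaving out CK tumor 3 with anti-PD-1 tumor 1 (chosen after seeing the data).

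Genes named were the 10 members, listed pathway genes called against CK or among the 3 most abundant of their list, and the 3 profiles nearest to Ido1. Listed pathway genes called higher for the antibody averaged over PB-020 were named too, after their values were seen. For that average, no fits of these genes with a tumor left out are given. Members and lists were chosen with earlier results of these data known. One gene of the interferon-γ list is not reported here and was left out of it. SD and standard errors cover spread between tumors and counting error only. Columns of group means were not used.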

Additional observations from a re-analysis of the deposited data

How the results depend on the processing

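With only the groups compared in the fit, the members called were 0 for anti-PD-1 against CK, 3 for the combination against CK and 3 for the combination against PB-020, where the fit of all tumors gave 1 each. With the strict filter (CPM above 1 in all 12 tumors), which removes Ido1 by construction, they were 0, 0 and 0, and 1 in place of 3 for the antibody averaged over PB-020. DESeq2 called 2 for the combination against CK. Without CK tumor 3 and anti-PD-1 tumor 1 they were 2 for the combination against CK and 3 for the combination against PB-020. With 1 tumor left out at a time they ran from 1 to 2 for anti-PD-1 and for the combination against CK, 0 to 3 for the combination against PB-020 and 1 to 4 for the antibody averaged over PB-020, and stayed at 0 in the comparisons with 0 calls. Genes of the 3 pathway lists called with anti-PD-1 were 6, against 1 with only the groups compared, 3 without both tumors and 2 to 14 with 1 left out (lowest without CK tumor 2, highest without anti-PD-1 tumor 2, and 3 without anti-PD-1 tumor 3). With the combination they were 9, against 14 with DESeq2, 18 with only the groups compared, 21 without both tumors and 7 to 21 with 1 left out (highest without anti-PD-1 tumor 1). The share of all genes called in each alternative is not given here. These moves are therefore not read as a feature of the members or of the lists. The cause of these moves was not tested, except for the strict filter.

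Over single genes, 686 values kept direction and side of the threshold, 68 lost and 13 gained the call, and 14 changed sign. Ptgs2 with PB-020 was 0.08 and 0.11 with limma (FPKM + 1 and + 0.1) and 0.77 without CK tumor 3, alone or with anti-PD-1 tumor 1. With anti-PD-1 it was -0.07, -0.13 and -0.03 without CK tumor 1, CK tumor 2 or anti-PD-1 tumor 1. With the combination it was 0.20 and 0.25 with limma, 0.13 with the replicate block, 0.91 without CK tumor 3, alone or with anti-PD-1 tumor 1, and 0.09 without combination tumor 3. Entpd1 with anti-PD-1 was -0.04 without anti-PD-1 tumor 1. With 1 tumor left out, Ptgs2 ran from -0.48 to 0.77, -0.13 to 1.13 and -0.35 to 0.91 in these 3 comparisons, and Entpd1 with anti-PD-1 from -0.04 to 0.65.

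Deviations from the group means in tumors with the same number had correlations of -0.21 to 0.289. Pairs with different numbers were not compared, so whether the numbers mark a pairing cannot be told from these values. With the replicate block, 2 members in place of 3 were called for the antibody averaged over PB-020, and the counts of members called in the other comparisons were the same. Nt5e on that average (adjusted p = 0.057) and Slc36a4 and Slco2a1 with anti-PD-1 (adjusted p = 0.066 and 0.06) were no longer called. Depth limits Tdo2, Kynu, Kmo and Adora2a, which rested on at most 44 counts in a tumor. It also limits the fold increases of Ido1, which rested on 26, 9 and 21 counts in the CK tumors.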
